A study of Rattus norvegicus with 11 samples.

Results

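The 10 genes described here belong to the cartilage programme: the transcription factor gene Sox9, the growth plate signal gene Ihh, and the matrix or secreted protein genes Acan, Hapln1, Comp, Matn1, Matn3, Epyc, Cnmd and Prg4. They were taken by symbol from the deposited count and FPKM tables, where all 10 were found among 23781 genes. In chondrocytes, SOX9 switches on the genes of a matrix built from type II collagen fibrils and aggrecan, and growth plate chondrocytes that leave proliferation secrete Indian hedgehog. Several of these genes are not confined to cartilage: Comp is also used by tendon and ligament, and Prg4, which encodes the lubricant lubricin, by the cells that line joint and tendon surfaces. The bones of the skull vault form without a cartilage template, although cartilage can appear in healing sutures and defects.

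The tissue came from Sprague Dawley rats aged 4 months with a rectangular defect drilled across the coronal suture of the skull, and was collected 6 weeks after surgery. The PLA group received an electrospun polylactic acid membrane (2 libraries), the GelMA group a gelatin methacryloyl hydrogel (3 libraries) and the CTS group a porous chitosan gel (3 libraries), while the NC group had the same defect left without a scaffold (3 libraries). All 4 groups therefore share the injury, and their cells were released with collagenase, freed of red cells, fixed, stained and sorted for the absence of Cd45, the pan-leukocyte surface protein, before RNA sequencing. The question put to these libraries was how each material shapes the tissue that fills the defect, and here it was asked of the cartilage genes. The labels do not say whether each library is a separate rat, so p-values measure the spread between these libraries, which may be technical.

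Libraries held 30150370 to 30932534 counts in PLA, 29108144 to 30587865 in GelMA, 28377088 to 31290849 in CTS and 22509898 to 27522199 in NC. Levels are given in CPM, counts scaled to a common library total, after TMM, which corrects each library for differences in composition. A call, written as higher or lower, required that edgeR's quasi-likelihood test gave an adjusted p under 0.05 (Benjamini-Hochberg over the 18049 genes that passed a filter on low counts) and that the log2 fold change exceeded 1 in size. The 6 comparisons use the same 11 libraries, so they share samples and are not independent of each other. NC replicate 2 stood apart: Col1a1, Col1a2 and Col3a1, the main fibrous collagen genes, took 16.9% of its counts, against 0.824% and 2.75% in the other NC libraries. Ptprc, which encodes Cd45, was at 1020 and 1055 CPM in PLA, 1138 to 1347 in GelMA, 1036 to 1272 in CTS and 336 to 1460 in NC, with the lowest value in NC replicate 2, so leukocyte RNA was present in every sorted library.

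Most of the cartilage genes were barely detected. Some collagen genes of chondrocytes were close to absent: Col2a1, the type II collagen gene, had 1 and 8 counts in PLA, 17, 0 and 0 in GelMA, 1, 0 and 0 in CTS and 0 in each NC library, a total of 27 counts. A count of 0 in all 3 NC libraries allows up to 3 counts over the group. Col9a1, a type IX collagen chain of cartilage, had 7 counts in all libraries together, and Col10a1, the type X collagen of hypertrophic chondrocytes, had 14. Other cartilage matrix genes were detected. Ucma summed to 40 counts in PLA, 119 in GelMA, 325 in CTS and 647 in NC, and Col9a2 to 17, 28, 107 and 236. In PLA against NC, Ucma had a log2 fold change of -3.35 and did not pass edgeR's quasi-likelihood test (adjusted p = 0.0593). Of the 10 members, 4 had counts in all 11 libraries, namely Sox9, Acan, Comp and Prg4. The libraries held counts for 6 to 8 members each. On the deposited FPKM scale, which divides by gene length and so allows genes to be compared, Prg4 ranged over the libraries from 3.87 to 19.5, Comp from 0.105 to 20.5, Acan from 0.160 to 2.90 and Sox9 from 0.230 to 2.52. By mean FPKM over the 11 libraries, Prg4 lay above 81.0% of the genes in the table, Comp above 60.2%, Sox9 above 46.3% and Acan above 45.8%, while the other members lay above 8.23% (Cnmd) to 38.2% (Epyc). The tissue is therefore described here by its genes rather than as cartilage.

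**Figure D1:**
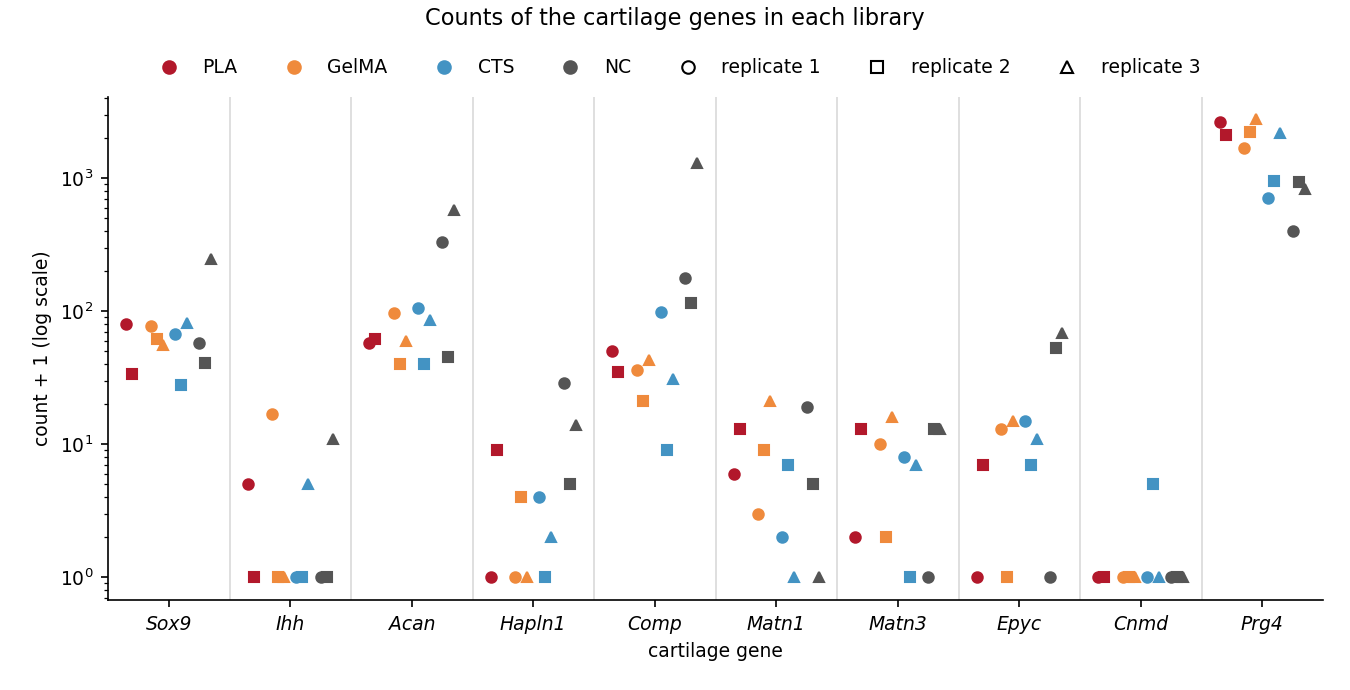
Counts of the 10 cartilage genes in the 11 libraries, as count + 1 on a log axis, with a point for each library, coloured by group (PLA, GelMA, CTS, NC) and shaped by replicate. Prg4 holds 402 to 2752 counts, the highest Comp and Acan points are NC replicate 3 with 1295 and 575 counts, and Matn1, Matn3, Hapln1, Ihh and Cnmd stay at or below 28 counts.

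Prg4, Comp and Acan are the members that passed the test in some comparison, so the 250 bases before their annotated starts are shown, 5′ to 3′ on each gene's own strand. The sequences are RefSeq's for the assembly GRCr8, while the deposited counts were made on mRatBN7.2. Promoter entries were matched by symbol. Acan lies at chr1:142390701-142390950 (plus strand), Comp at chr16:19089549-19089798 (minus strand) and Prg4 at chr13:65054226-65054475 (minus strand), and capitals mark a match to a searched motif.
Prg4: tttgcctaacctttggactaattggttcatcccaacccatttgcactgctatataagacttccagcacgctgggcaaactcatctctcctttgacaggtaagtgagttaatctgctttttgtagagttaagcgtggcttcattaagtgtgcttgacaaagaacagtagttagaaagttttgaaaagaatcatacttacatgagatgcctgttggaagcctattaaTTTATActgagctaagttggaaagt
Comp: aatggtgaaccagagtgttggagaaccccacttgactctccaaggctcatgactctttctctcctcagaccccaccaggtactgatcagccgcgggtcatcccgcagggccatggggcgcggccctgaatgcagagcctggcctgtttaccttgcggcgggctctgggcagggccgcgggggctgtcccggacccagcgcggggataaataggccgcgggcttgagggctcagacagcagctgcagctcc
Acan: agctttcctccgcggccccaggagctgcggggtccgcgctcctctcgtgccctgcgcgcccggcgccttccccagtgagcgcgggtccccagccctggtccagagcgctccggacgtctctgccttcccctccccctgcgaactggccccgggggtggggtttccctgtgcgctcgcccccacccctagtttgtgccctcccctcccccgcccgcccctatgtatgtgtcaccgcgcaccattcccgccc
The windows differed in base composition, with 38.8% G and C in Prg4, 64.8% in Comp and 73.6% in Acan. Both strands were searched for the SOX core ACAAT. They were also searched for the TATA box, spelled TATAAA, whose matches do not overlap those of the SOX core. The SOX core was in 30.0% of all 33469 promoter windows of this length and in none of these 3, which says only that those letters are not in these windows. The TATA letters were in 12.9% of all windows and once here, in Prg4, in the capitals at bases -25 to -20 from the start, where they read on the opposite strand.

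Among the members, Prg4 had the largest share of counts in every scaffold library, and it was the 1 member higher in PLA than in NC. Lubricin coats joint and tendon surfaces and lowers friction. Prg4 had 2617 and 2101 counts in PLA, 1679, 2231 and 2752 in GelMA, 708, 949 and 2196 in CTS and 402, 930 and 828 in NC. In CPM it stood at 108 and 90.3 in PLA, 50.4, 67.7 and 80.4 in GelMA, 20.9, 30.0 and 72.0 in CTS and 17.1, 42.0 and 31.7 in NC. Both PLA libraries lay above all others, the GelMA libraries lay above all NC libraries, and CTS replicate 3 lay above the rest of its group and inside the GelMA range. Group means were 99.4 ± 12.9 CPM in PLA (SD, n = 2), 66.2 ± 15.0 in GelMA, 41.0 ± 27.2 in CTS and 30.3 ± 12.5 in NC (SD, n = 3 each). In pooled RNA of sorted cells, a difference in the number of cells that express a gene and one in RNA per cell cannot be told apart.

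Against NC, the log2 fold change of Prg4 in PLA was 1.72 ± 0.49 (SE), and edgeR's quasi-likelihood test gave an adjusted p of 0.0405. This call lies close to the threshold: it was lost without PLA replicate 1 (adjusted p = 0.185), PLA replicate 2 (0.124), NC replicate 3 (0.0994), NC replicate 1 (0.0763), GelMA replicates 2, 3 and 1 (0.0730, 0.0647 and 0.0634) and CTS replicate 2 (0.0593), with log2 fold changes of 1.43 to 2.03 over all 11 such fits. It was also lost with library size alone (0.0516), with no filter (0.0658) and in a fit of PLA and NC alone (0.0948). The other Prg4 differences did not pass. The log2 fold change was 1.28 ± 0.49 in PLA against CTS (adjusted p = 0.114) and 0.59 ± 0.49 in PLA against GelMA (adjusted p = 0.500). It was 1.13 ± 0.45 in GelMA against NC (adjusted p = 0.135), 0.44 ± 0.45 in CTS against NC (adjusted p = 0.736) and -0.69 ± 0.45 in CTS against GelMA (adjusted p = 0.483). Without CTS replicate 3, PLA against CTS was called (log2 fold change 1.91, adjusted p = 0.0197). The scale matters for the order of the scaffold groups, since TMM factors were 0.772 and 0.780 in PLA and 1.08 to 1.14 in GelMA and CTS. In FPKM, which carries no such factor, Prg4 was at 18.3 and 15.1 in PLA, 12.5, 16.4 and 19.5 in GelMA, 4.90, 7.07 and 16.8 in CTS and 3.87, 7.32 and 7.47 in NC. On that scale PLA overlapped GelMA and CTS and still lay above NC.

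The gene patterns most like that of Prg4 over the 11 libraries, by Pearson r of log2 CPM and leaving aside genes whose log2 CPM averaged under 1, included those of Notch3 (r = 0.97) and Slc16a12 (0.97). Leaving out NC replicate 2 gave 0.98 for each. These are descriptions over libraries that share their group differences. Of 6 markers of pericytes and smooth muscle, 3 were called higher in PLA against NC, namely Cspg4, Mcam and Rgs5, where 8.32% of all genes were called higher. In a fit of PLA and NC alone these 3 calls were lost (adjusted p = 0.126, 0.0642 and 0.149 in edgeR's quasi-likelihood test). Without PLA replicate 1 the 3 calls became 0, and without PLA replicate 2 they became 2. The 6 markers summed to 469 and 695 CPM in PLA, 164 to 251 in GelMA, 128 to 295 in CTS and 98.2 to 316 in NC, and none of the 6 was at 0 in any library. Outside PLA this sum did not follow Prg4, since GelMA and NC overlapped in it. Myh11, 1 of the 6, was highest in NC replicate 3, at 120 CPM against 99.0 and 73.2 in PLA. Leukocyte markers summed to 12150 and 13346 CPM in PLA, 9893 to 19808 in GelMA, 35255 to 49871 in CTS and 9822 to 65995 in NC. The part of these cells in the Prg4 difference was not tested.

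**Figure D2:**
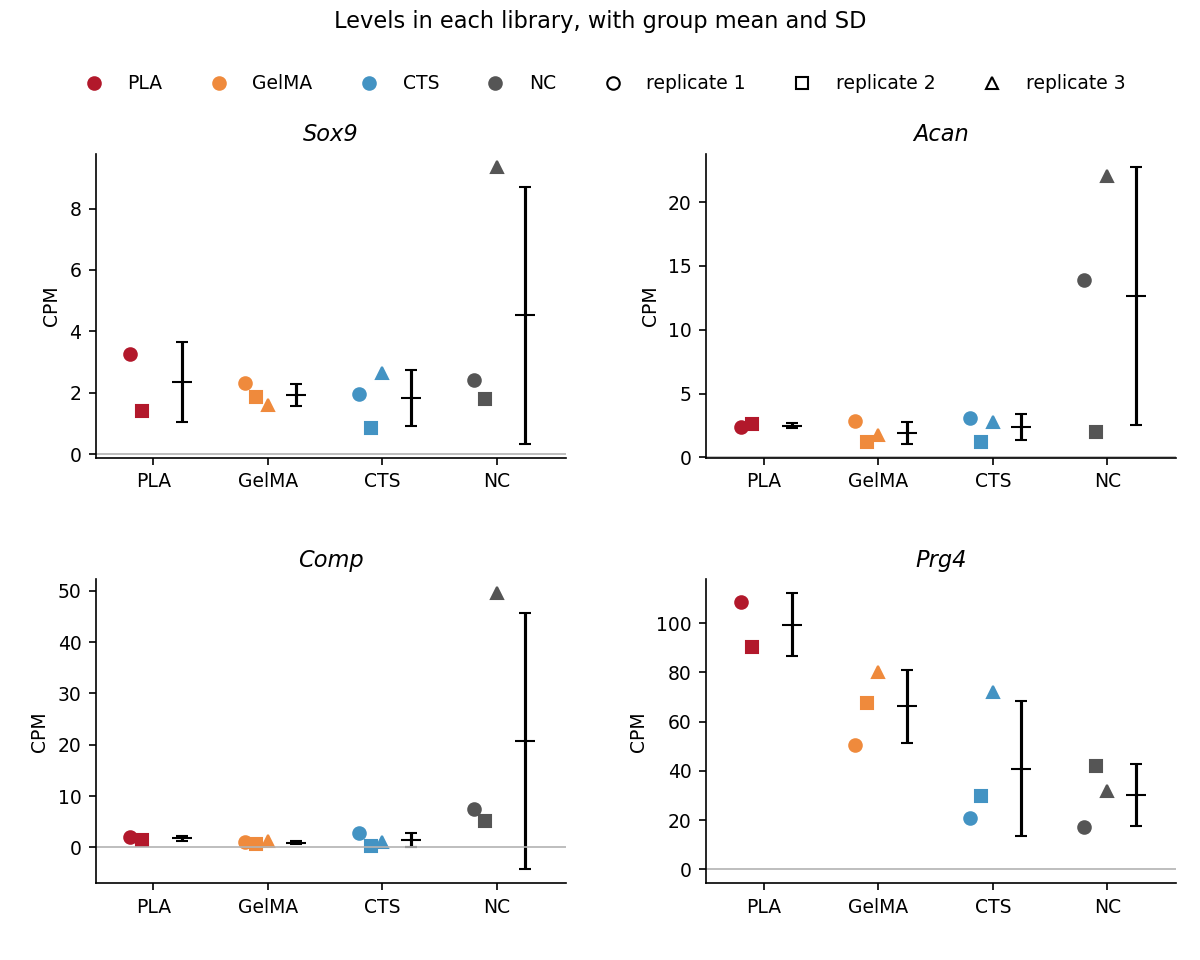
CPM of Sox9, Acan, Comp and Prg4 in each library, in panels with linear axes, with groups from left to right PLA, GelMA, CTS and NC. Points are libraries shaped by replicate, and the black bars beside them are the group mean and SD (n = 2 in PLA, n = 3 in the others). Both PLA libraries are highest for Prg4 at 108 and 90.3 CPM, while NC replicate 3 is highest for Sox9, Acan and Comp.

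Comp and Acan ran the other way, with their highest levels in the defects left without a scaffold. Comp encodes cartilage oligomeric matrix protein, a pentameric protein that binds collagen fibrils. It had 49 and 34 counts in PLA, 35, 20 and 42 in GelMA, 98, 8 and 30 in CTS and 175, 115 and 1295 in NC. In CPM it was at 2.03 and 1.46 in PLA, 1.05, 0.607 and 1.23 in GelMA, 2.89, 0.253 and 0.983 in CTS and 7.43, 5.20 and 49.6 in NC. Every scaffold library lay below every NC library, and NC replicate 3 lay far above the other NC libraries. Group means were 1.75 ± 0.40 CPM in PLA (SD, n = 2), 0.962 ± 0.319 in GelMA, 1.38 ± 1.36 in CTS and 20.7 ± 25.0 in NC (SD, n = 3 each).

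Comp was called lower in GelMA against NC, with a log2 fold change of -4.42 ± 1.03 (SE) and an adjusted p of 0.0250 in edgeR's quasi-likelihood test. Without NC replicate 3 the log2 fold change was -2.77 and the call was lost (adjusted p = 0.0753), and it was also lost without GelMA replicate 1 (0.0854), GelMA replicate 2 (0.102) and GelMA replicate 3 (0.0886) and in a fit of GelMA and NC alone (0.0681). PLA against NC gave a log2 fold change of -3.57 ± 1.18 (adjusted p = 0.0669), and in CTS against NC it was -3.90 ± 1.01 (adjusted p = 0.156), so neither passed. Without NC replicate 2, or without NC replicate 1, PLA against NC passed (adjusted p = 0.0273 and 0.0441), as it did with library size alone (log2 fold change -4.01, adjusted p = 0.0441). The scaffold groups differed less among themselves, by a log2 fold change of 0.86 ± 1.05 in PLA against GelMA (adjusted p = 0.663), 0.34 ± 1.04 in PLA against CTS (adjusted p = 0.874) and 0.52 ± 0.95 in CTS against GelMA (adjusted p = 0.859).

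Acan encodes aggrecan, the large proteoglycan whose sulphated chains hold water in cartilage. It had 57 and 61 counts in PLA, 96, 39 and 59 in GelMA, 105, 39 and 85 in CTS and 328, 44 and 575 in NC. In CPM it was at 2.36 and 2.62 in PLA, 2.88, 1.18 and 1.72 in GelMA, 3.10, 1.23 and 2.79 in CTS and 13.9, 1.99 and 22.0 in NC. NC replicates 1 and 3 lay above every scaffold library, whereas NC replicate 2 lay inside their range. Group means were 2.49 ± 0.18 CPM in PLA (SD, n = 2), 1.93 ± 0.87 in GelMA, 2.37 ± 1.00 in CTS and 12.6 ± 10.1 in NC (SD, n = 3 each).

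Acan was called lower in GelMA against NC, with a log2 fold change of -2.71 ± 0.74 (SE) and an adjusted p of 0.0444 in edgeR's quasi-likelihood test. The call passed in 1 of the 11 fits that leave out a library, the one without NC replicate 2, where the log2 fold change was -3.22 and the adjusted p 0.000832. It was lost without GelMA replicate 1, 2 or 3 (adjusted p = 0.0823, 0.148 and 0.145), NC replicate 1 or 3 (0.0577 and 0.120), PLA replicate 1 or 2 (0.0695 and 0.0696) and CTS replicate 1, 2 or 3 (0.0618, 0.0503 and 0.0591), and also with library size alone (0.0527) and in a fit of GelMA and NC alone (0.137). The log2 fold change was -2.34 ± 0.86 in PLA against NC (adjusted p = 0.0940) and -2.41 ± 0.73 in CTS against NC (adjusted p = 0.219). Without NC replicate 2, both passed (adjusted p = 0.00235 and 0.0261). Between scaffold groups the log2 fold changes of Acan were 0.07 to 0.37 in size, with adjusted p from 0.823 to 0.967.

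The patterns most like that of Comp were Lgi4 (r = 0.93), Id4 (0.88) and Cilp (0.88), with 0.93, 0.93 and 0.89 when NC replicate 2 was left out and 0.87, 0.87 and 0.77 when NC replicate 3 was. Those most like Acan were Iqcn (r = 0.91), Comp itself (0.87) and Zfp185 (0.87), with 0.91, 0.94 and 0.88 without NC replicate 2 and 0.85, 0.73 and 0.77 without NC replicate 3. Markers of fibroblasts summed to 24562 and 37369 CPM in PLA, 24495 to 25603 in GelMA, 22661 to 36856 in CTS and 9320 to 226699 in NC, where NC replicate 2 was highest, and 0 of 8 were called in any comparison by edgeR, with at most 2 at an unadjusted p under 0.05 and at most 2 called by DESeq2. Their part in the Comp and Acan differences was not tested.

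Sox9, the transcription factor that commits cells to the chondrocyte fate, was low and did not pass in any comparison. It had 79 and 33 counts in PLA, 77, 61 and 55 in GelMA, 66, 27 and 81 in CTS and 57, 40 and 244 in NC. In CPM it was at 3.28 and 1.42 in PLA, 2.31, 1.85 and 1.61 in GelMA, 1.95, 0.853 and 2.66 in CTS and 2.42, 1.81 and 9.34 in NC. The groups overlapped apart from NC replicate 3, which at 9.34 CPM lay above every other library. The log2 fold change was -0.95 ± 0.76 in PLA against NC (adjusted p = 0.446), -1.23 ± 0.67 in GelMA against NC (adjusted p = 0.261) and -1.31 ± 0.67 in CTS against NC (adjusted p = 0.468), and it was 0.08 in PLA against NC without NC replicate 3. Patterns most like Sox9 were Rtn2 (r = 0.83), Ece2 (0.82) and Slc29a2 (0.81), with 0.83, 0.84 and 0.81 without NC replicate 2 and 0.88, 0.71 and 0.64 without NC replicate 3.

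**Figure D3:**
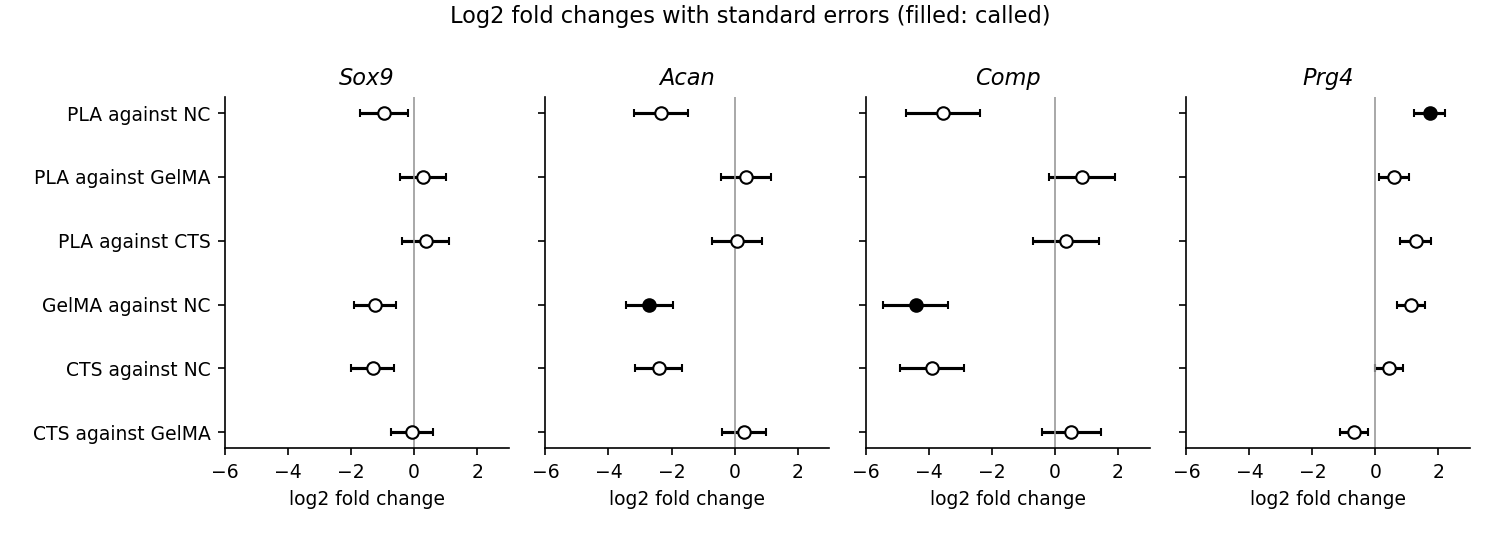
Log2 fold changes of Sox9, Acan, Comp and Prg4 in the 6 comparisons (rows), with bars for the standard error from edgeR's quasi-likelihood fit of all 11 libraries. Filled circles mark calls: Prg4 at 1.72 in PLA against NC, and Acan at -2.71 and Comp at -4.42 in GelMA against NC. In all 3 comparisons with NC the Acan and Comp estimates lie below 0 and those of Prg4 above it, although without CTS replicate 3 Prg4 was at -0.27 in CTS against NC.

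Epyc encodes epiphycan, a small leucine-rich proteoglycan of growth plate cartilage. It had 0 and 6 counts in PLA, 12, 0 and 14 in GelMA, 14, 6 and 10 in CTS and 0, 52 and 67 in NC. NC replicates 2 and 3 lay above every other library, while NC replicate 1 was at 0. The ratio of summed counts per effective library size was 0.0764 for PLA over NC (6 against 119 counts, exact 95% counting interval 0.0275 to 0.171), 0.156 for GelMA over NC (26 against 119, 0.0980 to 0.240) and 0.189 for CTS over NC (30 against 119, 0.122 to 0.283). These intervals cover counting error alone and not the spread between libraries.

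Hapln1 encodes the link protein that fastens aggrecan to hyaluronan. It had 0 and 8 counts in PLA, 0, 3 and 0 in GelMA, 3, 0 and 1 in CTS and 28, 4 and 13 in NC. Every GelMA and CTS library lay below every NC library, and the PLA libraries straddled NC replicate 2. With 3 counts in GelMA against 45 in NC, the ratio was 0.0476 (exact 95% counting interval 0.00947 to 0.148), and with 4 against 45 it was 0.0665 for CTS over NC (0.0174 to 0.182). PLA over NC gave 0.269 (8 against 45 counts, 0.110 to 0.577).

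Matn1 and Matn3 encode matrilins, adaptor proteins that link collagen fibrils and proteoglycans in cartilage. Matn1 had 5 and 12 counts in PLA, 2, 8 and 20 in GelMA, 1, 6 and 0 in CTS and 18, 4 and 0 in NC. Matn3 had 1 and 12 counts in PLA, 9, 1 and 15 in GelMA, 7, 0 and 6 in CTS and 0, 12 and 12 in NC. For both genes the PLA and GelMA libraries overlapped those of NC. Ihh, the hedgehog ligand of the growth plate, had 4 and 0 counts in PLA, 16, 0 and 0 in GelMA, 0, 0 and 4 in CTS and 0, 0 and 10 in NC. Each group had its Ihh counts in a single library. Cnmd, which encodes chondromodulin, an inhibitor of vessel growth in cartilage, had 4 counts in CTS replicate 2 and 0 in the other 10 libraries, and was the 1 member that failed the filter on low counts. None of Matn1, Matn3, Hapln1, Ihh and Epyc was called in any comparison or under any alternative processing, and 16 of their 30 log2 fold changes took the other sign under at least 1 alternative, so their fitted fold changes are not given.

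Counted over the 9 members that passed the filter, 1 was called higher and 0 lower in PLA against NC, where edgeR's quasi-likelihood test called 8.32% of all 18049 genes higher and 4.01% lower. At an unadjusted p under 0.05 there were 1 higher and 2 lower, beside 5472 of the 18049 genes in either direction. DESeq2 called 1 higher and 2 lower, beside 18.1% of all genes in either direction. In GelMA against NC, 0 were called higher and 2 lower, where 5.03% of all genes were called higher and 3.21% lower. At an unadjusted p under 0.05 there were 1 higher and 3 lower, beside 5063 of all genes in either direction. DESeq2 called 0 higher and 2 lower there, beside 15.3% of all genes. In CTS against NC, where 0.155% of all genes were called higher and 0.0222% lower, 0 members were called. There, 0 were higher and 2 lower both at an unadjusted p under 0.05 and by DESeq2. Of all genes, 2149 were at an unadjusted p under 0.05 in that comparison, and DESeq2 called 3.26%.

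Between scaffold groups 0 members were called. The shares of all genes called higher and lower were 4.61% and 1.47% in PLA against GelMA, 6.42% and 3.53% in PLA against CTS and 0.416% and 1.32% in CTS against GelMA. At an unadjusted p under 0.05, and likewise by DESeq2, 1 member was higher in PLA against CTS, which was Prg4, and 0 members differed in PLA against GelMA and in CTS against GelMA. Of all genes, 5198, 4550 and 3143 were at an unadjusted p under 0.05 in PLA against CTS, PLA against GelMA and CTS against GelMA. DESeq2 called 14.8%, 10.4% and 6.75% of all genes in the same comparisons. For the 9 members the median log2 fold change was -0.95 in PLA against NC, -1.23 in GelMA against NC and -2.04 in CTS against NC, beside -0.11, -0.05 and -0.02 over all genes tested. Between scaffold groups it was 0.29 in PLA against GelMA, 0.89 in PLA against CTS and -0.08 in CTS against GelMA, beside -0.04, -0.03 and -0.01 over all genes. These medians take in Matn1, Matn3, Hapln1, Ihh and Epyc, 16 of whose 30 log2 fold changes took the other sign under at least 1 alternative. The medians therefore rest in part on sparse counts and are not taken as a shift of the members as a set. Without Prg4, the members summed to 8.08 and 7.13 CPM in PLA, 7.42, 4.01 and 5.99 in GelMA, 8.68, 2.84 and 7.11 in CTS and 25.7, 12.2 and 84.8 in NC. Each NC library lay above every scaffold library in this sum. With Prg4 included, the sums were 117 and 97.4 CPM in PLA, 57.9 to 86.3 in GelMA, 29.6 to 79.1 in CTS and 42.8, 54.3 and 117 in NC. The range of NC then overlapped that of each scaffold group. Prg4 made up 93.1% and 92.7% of the members' counts in PLA, 87.2% to 94.4% in GelMA, 70.7% to 91.3% in CTS and 27.2% to 77.4% in NC.

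All calls among other cartilage matrix genes against NC were lower. Of 11 such genes tested, 5 were called lower and 0 higher in PLA against NC, and 5 lower and 0 higher in GelMA against NC, with 1 lower in CTS against NC, beside the shares of all genes given above. The median log2 fold change of the list was -1.42 in PLA against NC, -2.20 in GelMA against NC and -1.52 in CTS against NC. Without NC replicate 2 the calls numbered 6, 7 and 2, all lower. Those of PLA against NC numbered 1 without PLA replicate 1, 1 without PLA replicate 2, 2 without NC replicate 3 and 3 without GelMA replicate 2, and in GelMA against NC they numbered 3 without GelMA replicate 1, 2 or 3. The 1 call in CTS against NC, that of Cilp, was lost in 8 of the 11 such fits, all but those without NC replicate 1, NC replicate 2 or CTS replicate 2 (adjusted p from 0.0711 to 0.168). A fit of PLA and NC alone called 0 of these genes. DESeq2 called 6, 7 and 4, all lower, beside 18.1%, 15.3% and 3.26% of all genes in either direction.

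Cilp2, a relative of the cartilage intermediate layer protein gene Cilp, was at 2.40 and 5.46 CPM in PLA, 0.961, 2.22 and 2.16 in GelMA, 4.52, 8.19 and 11.1 in CTS and 28.3, 8.72 and 44.7 in NC. All PLA and GelMA libraries lay below all NC libraries. Its log2 fold change was -3.94 ± 0.66 in GelMA against NC (adjusted p = 0.00560), a call that held in all 11 fits without a library. Against NC in PLA it was -2.79 ± 0.73 (adjusted p = 0.0285), lost without PLA replicate 1, PLA replicate 2 or NC replicate 3 (adjusted p = 0.201, 0.0874 and 0.0656). Cilp was at 67.8 and 68.2 CPM in PLA, 31.2, 40.2 and 32.7 in GelMA, 34.4, 24.2 and 21.7 in CTS and 92.8, 138 and 247 in NC, so that PLA lay between the other scaffolds and NC. Its log2 fold change was -2.20 ± 0.33 in GelMA against NC (adjusted p = 0.00307), and that call held in all 11 fits.

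Against NC, Cilp in PLA had a log2 fold change of -1.23 ± 0.37 (adjusted p = 0.0472), and against CTS one of 1.34 ± 0.35 (adjusted p = 0.0297). Each of these 2 calls held in 4 of the 11 fits without a library: the NC one was lost without GelMA replicates 1 to 3, NC replicate 3, either PLA replicate or CTS replicate 2 (adjusted p from 0.0541 to 0.214), and the CTS one without GelMA replicates 1 to 3, either PLA replicate or CTS replicates 2 and 3 (0.0522 to 0.141). Chad, which encodes the cell-binding matrix protein chondroadherin, was at 0.497 and 0.0430 CPM in PLA, 0.811, 0.880 and 0.409 in GelMA, 1.00, 1.36 and 1.54 in CTS and 3.22, 8.18 and 18.9 in NC. Every scaffold library lay below every NC library. The log2 fold change was -5.19 ± 1.03 in PLA against NC (adjusted p = 0.00801), lost without PLA replicate 2 (0.0601), and -3.84 ± 0.78 in GelMA against NC (adjusted p = 0.0139), lost without GelMA replicate 1, 2 or 3 (0.0529, 0.0561 and 0.0688).

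Cytl1, a small secreted protein found in cartilage, had a log2 fold change of -4.63 ± 1.28 in PLA against NC (adjusted p = 0.0348), lost without PLA replicate 1, NC replicate 3 or GelMA replicate 2 (adjusted p = 0.141, 0.0849 and 0.0546). This fold change rests on 0 and 7 counts in PLA, so its size is uncertain. In CPM, Cytl1 was at 0 and 0.301 in PLA, 0.511, 0.455 and 0.146 in GelMA, 0.591, 0.126 and 0.524 in CTS and 2.76, 2.58 and 6.09 in NC. Every scaffold library lay below every NC library. The remaining called members of the list were Matn2, lower in PLA against NC and in GelMA against NC, and Matn4, lower in GelMA against NC, both matrilins, and these were named because they complete the count. Matn2 held its call in GelMA against NC in all 11 fits, lost it in PLA against NC without either PLA replicate (adjusted p = 0.0974 and 0.175), and Matn4 held its call in the 2 fits without NC replicate 1 or 2 and lost it in the other 9 (0.0548 to 0.138).

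**Figure D4:**
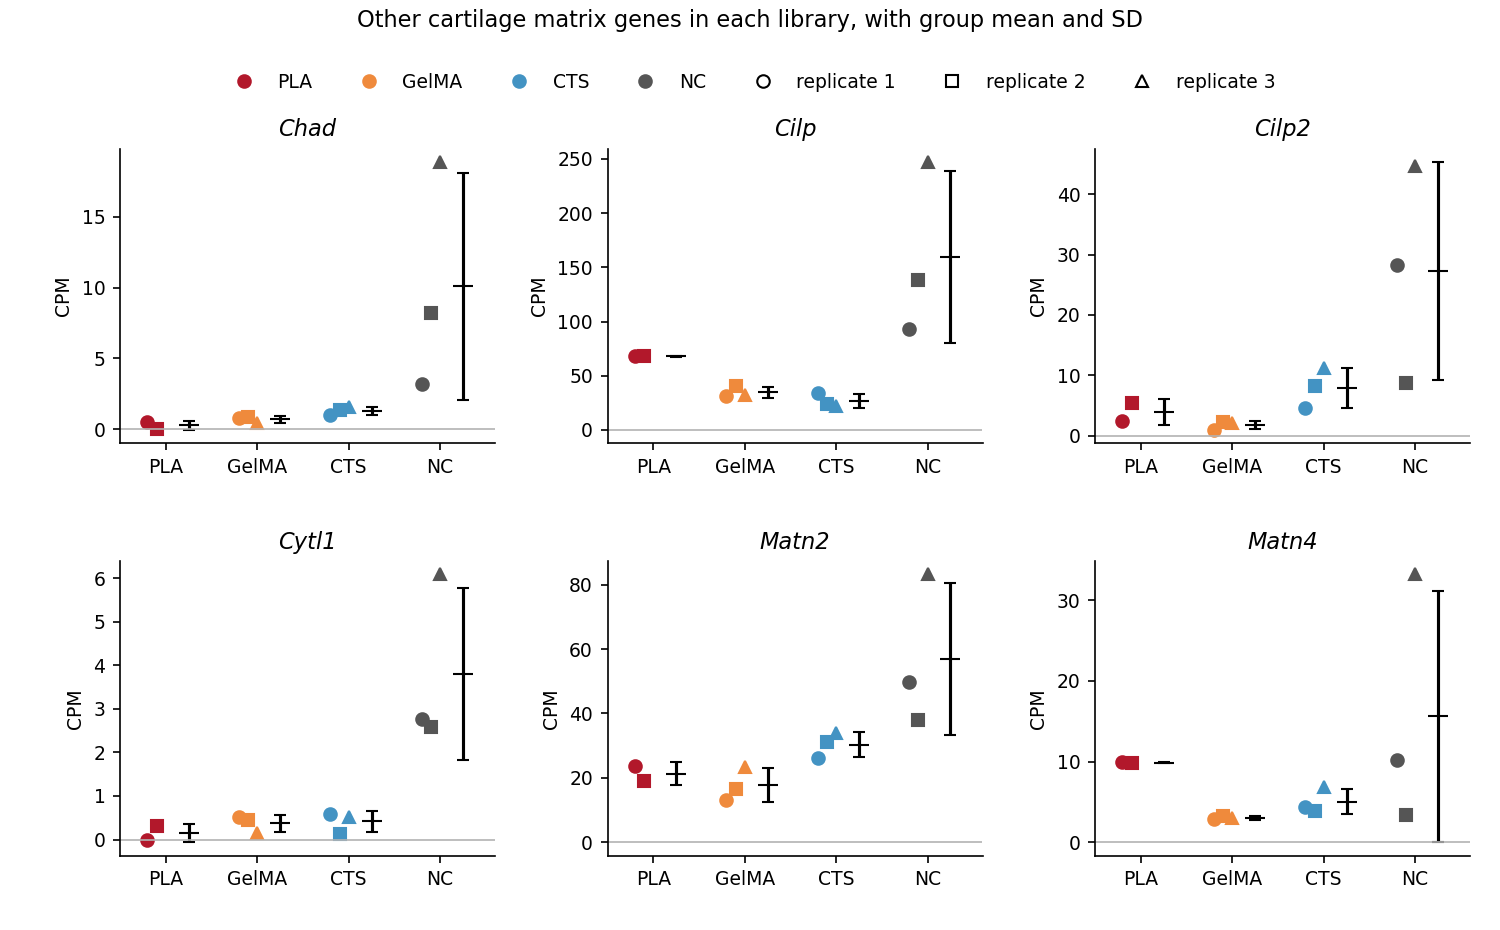
CPM of Chad, Cilp, Cilp2, Cytl1, Matn2 and Matn4 in each library, in panels with linear axes and groups from left to right PLA, GelMA, CTS and NC. Points are libraries shaped by replicate, and the black bars are the group mean and SD (n = 2 in PLA, n = 3 in the others). For Chad and Cilp every scaffold library lies below every NC library, with Chad at 0.0430 to 1.54 CPM with a scaffold and 3.22 to 18.9 CPM in NC.

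Among the cartilage collagens, 5 of 8 passed the filter. Their median log2 fold change was -0.23 in PLA against NC, 0.35 against GelMA and 0.62 against CTS. Against NC in PLA, the uncalled values were -3.16 for Col9a2, -2.50 for Col9a3, -0.23 for Col11a1 and 0.46 for Col11a2. In GelMA against NC and in CTS against NC edgeR called 0. In each of these, 1 was lower at an unadjusted p under 0.05 and 1 by DESeq2, beside 5063 and 2149 of all genes at that p and 15.3% and 3.26% by DESeq2. Col27a1, a fibril-forming collagen of cartilage, was called higher in PLA against NC, GelMA and CTS, and it was the 1 gene of the list called in these comparisons. In the same comparisons 8.32%, 4.61% and 6.42% of all genes were called higher. Col27a1 is described here by its levels. It was at 55.2 and 36.1 CPM in PLA, 14.4, 14.9 and 18.2 in GelMA, 11.7, 6.95 and 16.5 in CTS and 7.38, 12.8 and 12.1 in NC. Both PLA libraries lay above all others. The log2 fold change was 2.09 ± 0.36 against NC (adjusted p = 0.00407), 1.53 ± 0.36 against GelMA (adjusted p = 0.0280) and 1.96 ± 0.36 against CTS (adjusted p = 0.00645). Without PLA replicate 1 all 3 calls were lost (adjusted p = 0.0504, 0.218 and 0.0773), and the GelMA one also without PLA replicate 2 (0.0740), CTS replicate 1 (0.0502) and GelMA replicate 1, 2 or 3 (0.111, 0.104 and 0.0658).

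Of 7 other chondrogenic transcription factor genes tested, Runx3, a driver of chondrocyte maturation that lymphocytes also use, was called higher in PLA against NC and CTS and in GelMA against NC. In those comparisons 8.32%, 6.42% and 5.03% of all genes were called higher. In CPM, Runx3 levels separated the groups. It was at 324 and 285 CPM in PLA, 229, 241 and 283 in GelMA, 127, 104 and 116 in CTS and 83.8, 57.7 and 74.1 in NC. The PLA libraries lay above all GelMA libraries, though by 285 against 283 CPM at the closest, these above all CTS libraries, and these above all NC libraries. In FPKM, which carries no TMM factor, PLA and GelMA changed places. Group means of Runx3 were then 38.8 ± 3.8 in PLA (SD, n = 2), 46.4 ± 4.9 in GelMA, 20.6 ± 2.0 in CTS and 11.8 ± 3.6 in NC (SD, n = 3 each). Its log2 fold change was 2.08 ± 0.19 in PLA against NC (adjusted p = 9.7e-05), 1.39 ± 0.19 in PLA against CTS (adjusted p = 0.00125) and 1.80 ± 0.18 in GelMA against NC (adjusted p = 0.000497), and these calls held in all 11 fits without a library. Runx2, which drives chondrocyte hypertrophy and bone formation, was higher in GelMA against NC by a log2 fold change of 1.03 ± 0.16 (adjusted p = 0.00393), at the edge of the fold threshold. It fell under that threshold without GelMA replicate 1 or 3 (log2 fold change 0.93 and 0.97), NC replicate 2 (0.91) or any CTS replicate (0.98 each). The same held with RLE factors (0.97), no filter (0.98) or DESeq2 (0.97). In CTS against GelMA both Runx2 and Runx3 were called lower, where 1.32% of all genes were. Both calls were lost without GelMA replicate 1, 2 or 3 or CTS replicate 1 or 2, and that of Runx2 also without NC replicate 3. With library size alone, Runx3 in PLA against CTS fell under the fold threshold (0.92). The Sox9 partners Sox5 and Sox6 were not called.

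In the hedgehog and parathyroid hormone-related protein loop, which paces the growth plate, 0 of 9 genes tested were called in PLA against NC by edgeR. In that comparison 8.32% of all genes were called higher and 4.01% lower. At an unadjusted p under 0.05, 1 of the 9 was higher and 1 lower, beside 5472 of all genes. DESeq2 called 1 lower, beside 18.1% of all genes in either direction. In GelMA against NC 2 were called lower, where 3.21% of all genes were. These were Gli1, a direct target of hedgehog signalling, with a log2 fold change of -1.76 ± 0.49 (adjusted p = 0.0454), and Fgfr3, a brake on chondrocyte proliferation, with -1.49 ± 0.39 (adjusted p = 0.0370). Gli1 held its call in 3 of 11 fits without a library (the others gave adjusted p from 0.0596 to 0.147, without each library but NC replicates 2 and 3 and CTS replicate 3), and Fgfr3 in 4 of 11 (0.0523 to 0.114, without GelMA replicates 1 to 3, NC replicate 3, either PLA replicate or CTS replicate 1).

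Of 8 genes for enzymes and an inhibitor that act on aggrecan and COMP, 1 was called higher in PLA against NC, 2 in PLA against CTS and 1 in GelMA against NC, and 0 lower, where 8.32%, 6.42% and 5.03% of all genes were called higher. Mmp13, a collagenase that also cleaves aggrecan, was at 403 and 314 CPM in PLA, 64.3, 78.6 and 95.3 in GelMA, 11.8, 8.38 and 34.5 in CTS and 7.47, 2.03 and 15.8 in NC. Both PLA libraries lay above all others, and GelMA lay between PLA and the other groups. Its log2 fold change was 5.41 ± 0.80 in PLA against NC (adjusted p = 0.00160) and 4.30 ± 0.76 in PLA against CTS (adjusted p = 0.00531), calls that held in all 11 fits without a library. It was 3.23 ± 0.70 in GelMA against NC (adjusted p = 0.0182), lost without GelMA replicate 2 (0.0573) or 3 (0.0661). Adamts7, a protease that cleaves COMP, had a log2 fold change of 2.47 ± 0.63 in PLA against CTS (adjusted p = 0.0286) and kept its call in 5 of 11 such fits, losing it without GelMA replicates 1 and 2, PLA replicate 1 and each CTS replicate (adjusted p up to 0.251).

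Comp is shared with tendon and ligament, and their genes split. In PLA against NC, 2 of 8 were called higher and 4 lower, where 8.32% of all genes were called higher and 4.01% lower, and in GelMA against NC 0 higher and 2 lower, where 5.03% and 3.21% of all genes were. In PLA against GelMA and against CTS, Tnc and Egr1 were called higher and 0 lower, where 4.61% and 6.42% of all genes were called higher. Leaving out PLA replicate 1 took every PLA count of this list to 0, in both directions. PLA against NC had 1 higher and 2 lower without PLA replicate 2 and 0 higher and 4 lower without NC replicate 3. The 2 higher in PLA against GelMA became 0 without GelMA replicate 1 or 2 and 1 without GelMA replicate 3, PLA replicate 2 or CTS replicate 2, while without NC replicate 3 Egr1 was lost (adjusted p = 0.0616) and Fmod gained. The 2 higher in PLA against CTS became 1 without PLA replicate 2 or CTS replicate 1 or 2. Fmod, the collagen-binding proteoglycan fibromodulin, was at 74.6 and 61.6 CPM in PLA, 32.9, 29.6 and 25.3 in GelMA, 55.2, 53.1 and 58.5 in CTS and 242, 118 and 408 in NC. Every scaffold library lay below every NC library. Its log2 fold change in GelMA against NC was -3.13 ± 0.37 (adjusted p = 0.000921), and that of the tenocyte membrane protein gene Tnmd was -3.02 ± 0.42 (adjusted p = 0.00206), both held in all 11 fits without a library.

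The largest falls of that list in PLA against NC were those of Mkx, a tendon transcription factor, at -4.06 ± 1.04 (adjusted p = 0.0257, lost without PLA replicate 1 at 0.157), and Kera, the proteoglycan keratocan, at -4.01 ± 1.19 (adjusted p = 0.0453). Kera held in 2 of 11 fits, those without NC replicate 1 and NC replicate 3 (adjusted p from 0.0540 to 0.231 in the others), and was at -2.37 (adjusted p = 0.0950) without NC replicate 2. In PLA, Mkx had 1 and 8 counts and Kera 5 and 4, so the sizes of these falls are uncertain. For both genes every GelMA library also lay below every NC library. The genes that rose in PLA were Tnc, a matrix protein of healing tissue, and Egr1, an early response factor that also acts in tendon. Tnc was at 148 and 54.6 CPM in PLA, against 14.5, 38.6 and 13.7 in NC, a log2 fold change of 2.19 ± 0.50 (adjusted p = 0.0160) that was 1.29 without PLA replicate 1 (adjusted p = 0.202) and 1.85 without NC replicate 3 (0.0602). A fit of PLA and NC alone ended all 6 calls of this list in that comparison (adjusted p from 0.105 for Egr1 to 0.207 for Kera). Egr1 had a log2 fold change of 1.21 ± 0.29 in PLA against NC (adjusted p = 0.0199), lost without PLA replicate 1, PLA replicate 2 or NC replicate 3 (0.115, 0.0937 and 0.0659).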

How the data were processed

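RNA-seq libraries of sorted Cd45- cells from 11 samples in 4 groups were analysed. Per the labels, the authors used fastp on the reads, HISAT2 for alignment to the assembly mRatBN7.2, HTSeq to count reads in genes and DESeq for their own comparisons, with versions not stated. The deposited counts are whole reads per gene and were used as they stand. The deposited FPKM values are counts over gene length and library total, which held in all 203527 values checked (relative tolerance 0.001) and were used to compare levels between genes. All 11 columns of each table were mapped to a sample by label, and 0 columns were left unused.

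The count analysis used edgeR 4.0.16 under R 4.3.3, with filterByExpr at a minimum count of 10, TMM factors and 1 robust quasi-likelihood fit to the 4 groups without further covariates, since PLA has 2 libraries. A standard error was taken as the size of the log2 fold change divided by the square root of F. Ratios of sparse counts carry exact 95% counting intervals, which cover counting error only. Tried as alternatives were DESeq2 1.42.0, RLE factors, scaling by library size alone, dropping the filter or the fold threshold, edgeR on the 2 groups compared, a block for the replicate number, and fits without each library in turn. The steps were also run on simulated counts with known changes. What was recovered is not reported here, so that run says nothing on how many changes these libraries can show. Promoter windows and motif shares came from RefSeq's GRCr8, and the plots from matplotlib 3.10.9 in Python 3.11.15.

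The members and the gene lists were chosen with earlier results of these data known. Named were all members, the 2 called genes with the largest log2 fold change per direction and list in each PLA comparison and in GelMA against NC, and the 3 genes most like a member in pattern, of which 1 is not reported here.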

Additional observations from a re-analysis of the deposited data

How the results depend on the processing

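Counts of cartilage genes called moved with the method. In PLA against NC, 1 was called, against 0 without a filter, 0 with edgeR on the 2 groups compared 3 with DESeq2 (Prg4, Acan and Comp), 1 with library size alone (Comp lower in place of Prg4 higher), and 0 to 3 when a library was left out. In GelMA against NC, 2 were called, against 1 with library size alone, 0 with edgeR on the 2 groups and 0 to 2 when a library was left out. PLA against CTS had 0, against 1 with DESeq2 and 0 to 1 when a library was left out. CTS against NC had 0, against 2 with DESeq2 and 0 to 1 when a library was left out. DESeq2 called more of all genes too, for example 18.1% against 12.3% with RLE factors in PLA against NC. The cause of these shifts was not tested. With the replicate number as a block, GelMA against NC had 1 call and PLA against CTS 1; over 15 same-numbered pairs of libraries the correlation of deviations ran from -0.11 to 0.12 (median 0.01), 5 of 11 libraries correlated best with their own number, and the labels give the number no shared meaning, so the numbers were not taken to pair libraries. Library size alone moved the median of all genes to -0.43, -0.58 and -0.51 in PLA against NC, GelMA and CTS; beside these, Prg4 was at 1.42 in PLA against NC (adjusted p = 0.0516). Uncalled log2 fold changes that turned sign there were those of Sox9 (-0.25), Acan (-0.17) in PLA against GelMA and of Sox9 (-0.11), Acan (-0.41) and Comp (-0.14) in PLA against CTS. With libraries left out, uncalled values that turned sign spanned -1.67 to 0.0757 (Sox9, PLA against NC), -0.45 to 0.76 (Sox9, PLA against GelMA), -0.36 to 0.84 (Sox9, PLA against CTS), -0.42 to 0.28 (Sox9, CTS against GelMA), -0.28 to 0.26 (Acan, PLA against CTS), -0.20 to 1.45 (Comp, PLA against CTS), -0.61 to 1.03 (Comp, CTS against GelMA) and -0.27 to 0.75 (Prg4, CTS against NC). Where a library was left out of PLA, the lone PLA library was assumed to vary like the other groups. Of the refitted fold changes of these 4 genes, 375 kept their direction and side of the threshold, 29 lost a call, 12 gained one and 16 turned sign. Depth limits Matn1, Matn3, Hapln1, Ihh, Epyc and Cnmd, whose counts of 0 to 67 per library cannot show changes of moderate size.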

Other observations

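Markers of the other cell types that the sort could hold differed between groups as well. Of 6 endothelial markers tested, 1 was called higher in PLA against NC and 2 in PLA against GelMA, and 0 lower, beside 8.32% and 4.61% of all genes called higher. Vwf, the von Willebrand factor of vessel lining, had a log2 fold change of 1.47 ± 0.35 in PLA against NC (adjusted p = 0.0186) and 1.58 ± 0.35 in PLA against GelMA (adjusted p = 0.0219). Both calls were lost without either PLA replicate (adjusted p from 0.0868 to 0.131), the NC one also without NC replicate 3 (0.0719) and the GelMA one without GelMA replicate 1, 2 or 3 (0.0945, 0.0774 and 0.0672). Cdh5, the cadherin of endothelial junctions, had a log2 fold change of 1.61 ± 0.41 in PLA against GelMA (adjusted p = 0.0383), lost without either PLA replicate, GelMA replicate 1, 2 or 3, NC replicate 3 or CTS replicate 1 (adjusted p from 0.0524 to 0.176).

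Of 6 pericyte and smooth muscle markers, 3 were higher in PLA against NC, 2 in PLA against GelMA and 2 in PLA against CTS, and 0 were lower, beside 8.32%, 4.61% and 6.42% of all genes called higher. Mcam, a surface protein of pericytes and vessels, was at 135 and 84.5 CPM in PLA, 21.1, 30.1 and 35.0 in GelMA, 24.6, 15.6 and 43.5 in CTS and 8.40, 26.5 and 18.7 in NC, with both PLA libraries above all others. Beside Mcam, Tagln, a smooth muscle protein that binds actin, made up the calls against GelMA (log2 fold change 1.84 ± 0.45, adjusted p = 0.0343) and against CTS (1.68 ± 0.45, adjusted p = 0.0345). In PLA against GelMA the 2 calls became 0 without either PLA replicate or GelMA replicate 1, 2 or 3, and 1 without NC replicate 3 or CTS replicate 1. In PLA against CTS they became 0 without either PLA replicate or CTS replicate 1 or 2, 1 without GelMA replicate 1, 2 or 3, and 3 to 5 without CTS replicate 3 or an NC replicate.

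Of 7 osteoblast markers tested, 1 was called higher in GelMA against NC, Runx2, where 5.03% of all genes were called higher. The median log2 fold change of the list was -0.88 there. At an unadjusted p under 0.05, 1 was higher and 1 lower, beside 5063 of all genes. DESeq2 called 0 higher and 1 lower, beside 15.3% of all genes. Runx2 was also called lower in CTS against GelMA, where 1.32% of all genes were. In the PLA comparisons edgeR called 0. Of all genes, 8.32%, 4.61% and 6.42% were called higher in PLA against NC, GelMA and CTS, and 4.01%, 1.47% and 3.53% lower. At an unadjusted p under 0.05, 1 was higher and 0 lower in PLA against NC and 1 higher and 1 lower in PLA against CTS, with 0 in PLA against GelMA, while DESeq2 called 1 lower in PLA against NC and 0 in the other PLA comparisons. Of all genes, 5472, 4550 and 5198 were at an unadjusted p under 0.05 in PLA against NC, GelMA and CTS, and DESeq2 called 18.1%, 10.4% and 14.8%. Of 8 leukocyte markers, 3 were called higher in GelMA against NC and 2 in PLA against NC, with 0 lower, beside 5.03% and 8.32% of all genes called higher. In GelMA against NC these were Cd3e of T cells, with a log2 fold change of 4.26 ± 0.58 (adjusted p = 0.00186), Cd79b of B cells, with 3.36 ± 0.39 (adjusted p = 0.000809), and Cd68 of macrophages, with 1.77 ± 0.28 (adjusted p = 0.00387), calls that held without each of the 11 libraries in turn. S100a8 and S100a9 of neutrophils had log2 fold changes of -1.89 and -2.01 there, which did not pass edgeR's test (adjusted p = 0.0867 and 0.0660) and were named after their values were seen. DESeq2 called 2 leukocyte markers lower in that comparison. S100a8 and S100a9 were at -2.33 and -1.96 in PLA against NC, and did not pass edgeR's test either (adjusted p = 0.0637 and 0.0943). Of the 8 markers, 2 were higher and 2 lower there at an unadjusted p under 0.05, beside 5472 of all genes. DESeq2 called 2 higher and 2 lower, beside 18.1% of all genes, and the median log2 fold change of the list was -0.08. In PLA against NC, Cd3e had a log2 fold change of 2.29 ± 0.57 (adjusted p = 0.0229) and Cd68 one of 1.23 ± 0.29 (adjusted p = 0.0198), both lost without either PLA replicate or NC replicate 3 (adjusted p from 0.0706 to 0.108), and Cd68 was under the fold threshold without NC replicate 2 (0.99). Cd79b was lower in PLA against GelMA (-3.60 ± 0.47, adjusted p = 0.00157) and in PLA against CTS (-1.75 ± 0.43, adjusted p = 0.0239), the CTS call being lost without PLA replicate 1 (0.190) or CTS replicate 1 (0.0659).

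The patterns most like those of the sparse members are descriptions over 11 libraries in which these members had few counts. For Matn1 they were Banp (r = 0.87, and 0.87 without NC replicate 2), LOC120101757 (0.78 and 0.78) and Hook2 (0.77 and 0.78). For Matn3 they were Adam23 (0.85 and 0.89), Pstk (0.85 and 0.82) and Nudt16 (0.84 and 0.82), and for Hapln1 Pcgf2 (0.87 and 0.87), LOC120096251 (0.85 and 0.85) and Ccdc136 (0.84 and 0.84). For Ihh they were Clic5 (0.79 and 0.78), Galnt1 (0.77 and 0.75) and Psmg2 (0.77 and 0.76), and for Epyc Synj2bp (0.90 and 0.91), Tmcc2 (0.87 and 0.82) and Ldah (0.86 and 0.83).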
